A study of Mus musculus with 94 samples.

Results

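The radiation effect on day 7 was read in tumors that all received indomethacin (INDO), by setting 5 tumors given 6 Gy + INDO against 5 given INDO alone. The 10 tumors were chosen by their labels, out of 94 tumors in the series. The comparison was described in the 11361 genes with a mean of 5 or more CPM (counts scaled to library size) in INDO tumors, out of 21874 genes tested on day 7 and 49080 genes in the table.

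The tumors grew from 4T1, a mouse mammary carcinoma line used as a model of triple-negative breast cancer, implanted in the right hind limb of female BALB/c mice at 8 weeks of age. The 6 Gy + INDO tumors received a single dose of 6 Gy and INDO at 30 mg/L in drinking water, and the INDO tumors received the same drug without irradiation (IR). A further pair of day 7 groups carried no drug: 5 tumors given 6 Gy and 5 untreated control tumors. No genetic change separates the groups, all tumors are grafts of 1 cell line, and whole tumors were sequenced, so the host cells of each graft are part of each library. The labels number 5 tumors per group without naming the mouse of each, so p-values measure the spread between these tumors.

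Indomethacin blocks the cyclooxygenases COX1 and COX2, the enzymes that make the precursor of prostaglandins from arachidonic acid. Ionizing radiation breaks DNA in tumor cells, in endothelial cells lining the vessels, in the pericytes and fibroblasts around them and in infiltrating leukocytes. Fibroblasts and pericytes build the collagen-rich matrix and the vessel wall, and tumor macrophages take up dying cells and show peptides on MHC class II molecules.

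The 6 Gy + INDO libraries held 74900000, 32000000, 21000000, 36100000 and 31900000 counts in replicates 1 to 5, and the INDO libraries 34500000 to 70800000. Markers of the 4T1 epithelium (Epcam, Krt8, Krt18, Cdh1) were high in all 10 tumors, with Epcam at 202 to 313 CPM in 6 Gy + INDO tumors and 228 to 336 CPM in INDO tumors. Other signals separated the groups in part. Olfactory and vomeronasal receptor genes, which serve smell and have no known role in mammary tumors, took 342, 1650 and 772 CPM in 6 Gy + INDO replicates 2, 3 and 5, against 72.2 and 93.1 CPM in 6 Gy + INDO replicates 1 and 4 and 64.5 to 87 CPM in INDO tumors. Those 3 tumors, over 300 CPM, are called high-receptor below. The 16 skeletal muscle genes summed to 759, 44.3, 1550, 1330 and 49.8 CPM in 6 Gy + INDO tumors, against 13500, 19100, 74.7, 7900 and 3930 CPM in INDO tumors, so that 4 INDO tumors held more muscle RNA than any 6 Gy + INDO tumor and INDO replicate 3 held little. Skin genes reached 1510 and 2980 CPM in 6 Gy + INDO replicates 1 and 5 and stayed at 192 CPM or less in the other 8 tumors. The adipocyte list had 5 of 14 genes at the level limit, all below 0 (median log2 -1.44), none called by edgeR, 3 at an unadjusted p under 0.05, and 1 called lower by DESeq2. Its sum was 22.9, 7.13, 30.4, 14.8 and 16.7 CPM in 6 Gy + INDO tumors, against 61.2, 105, 10.1, 52.8 and 33 CPM in INDO tumors, with INDO replicate 3 again low. Its part in the results was not tested. Mitochondrial genes took 3.37% to 9.33% of counts in 6 Gy + INDO tumors and 5.49% to 14% in INDO tumors.

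**Figure D1:**
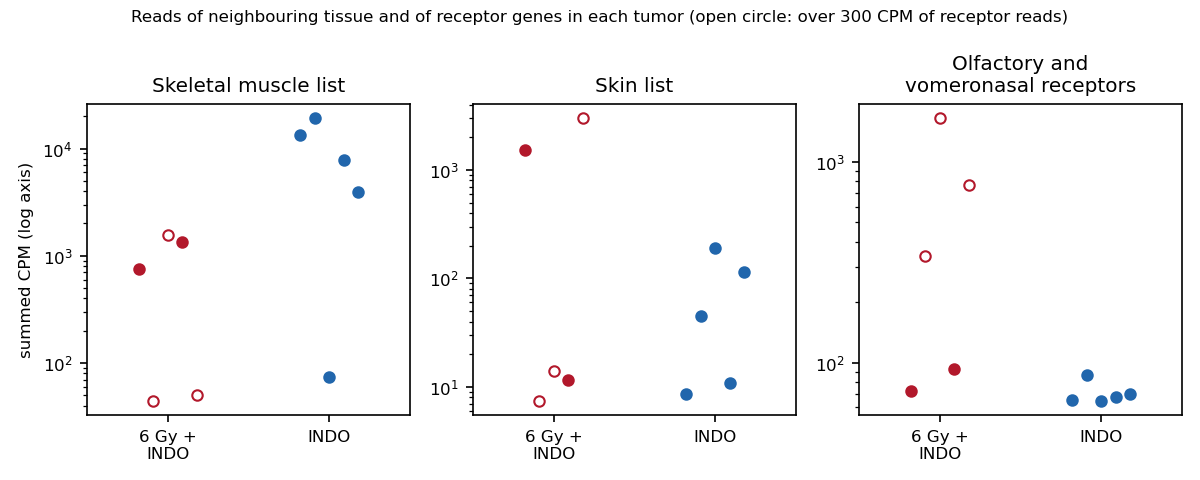
Summed CPM on a log axis of the skeletal muscle list, the skin list and the olfactory and vomeronasal receptors, by tumor, for 6 Gy + INDO (left, n = 5) and INDO (right, n = 5), with replicates 1 to 5 from left to right within a group and high-receptor tumors as open circles. Muscle genes were at 74.7 CPM in 1 INDO tumor and at 3930 CPM or more in the other 4, and receptor genes exceeded 300 CPM in 3 of the 5 6 Gy + INDO tumors.

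In these drug-treated tumors, genes of vessels, fibroblasts, pericytes and myeloid cells were among those lower after IR. The lists for tumor epithelium, DNA repair, mitosis and interferon-stimulated genes had no member called by edgeR, nor did several other lists. For lists of this size that is near the share called over all genes, given next. DESeq2 called 1 mitosis gene and 1 DNA repair gene higher. At an adjusted p under 0.05 (edgeR quasi-likelihood test, Benjamini-Hochberg over the 21874 genes), 15 genes were higher with 6 Gy + INDO (0.132% of the 11361) and 92 were lower (0.81%), which makes 107 genes in all (0.942%). The 5 tumors of each group did not overlap for 8 of the 15 and 64 of the 92. Over all 11361 genes this held for 49 genes in the higher direction (0.431%) and 216 in the lower (1.9%). The called log2 fold changes (6 Gy + INDO over INDO) ran between -3.49 and -0.4 for lower genes and between 0.27 and 1.52 for higher genes, with a median of -0.06 over all 11361. Adjusted p-values of the called genes ran between 0.0099 and 0.049, and 63 of the 107 were at 0.04 or more. At an unadjusted p under 0.05 in the same test, 303 of the 11361 genes were higher and 1554 lower.

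The counts depended on which tumors entered the fit. With 1 tumor left out, the lower genes numbered 485, 11, 21, 138 and 9 without 6 Gy + INDO replicates 1 to 5 and 32, 25, 82, 5 and 13 without INDO replicates 1 to 5. The higher genes numbered 49, 2, 9, 20 and 2 without 6 Gy + INDO replicates 1 to 5 and 4, 3, 10, 1 and 1 without INDO replicates 1 to 5. Without the 3 high-receptor tumors, which leaves 2 tumors against 5, no gene was called in edgeR's test, and 274 higher and 325 lower genes had an unadjusted p under 0.05. With only the 2 INDO groups in the fit, none was called either, and 423 higher and 1102 lower genes had an unadjusted p under 0.05. Scaling to housekeeping genes, which raised the median log2 fold change by 0.25, called 600 higher and 47 lower genes, so the balance of 15 against 92 depends on the scaling. It also depends on the level limit, which was set in INDO tumors alone and favors genes high in them. Over all 21874 genes tested, 168 were higher and 122 lower. With the limit of 5 CPM set over both groups, 20 were higher and 89 lower. The sign of the change held for all 92 lower and all 15 higher genes in every one of these fits. These fits reuse most of the tumors in which the genes were chosen, so a held sign was favored in advance.

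With the muscle score as a covariate, chosen after seeing the data, 8 of the 92 genes remained called: Hic1, Col15a1, Mmp9, Plvap, Slc16a3, Bin2, Csf2ra and Dok3.

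Col15a1 and Plvap were called lower in every fit with 1 tumor left out. Col15a1, which encodes a collagen of the basement membrane around vessels and muscle fibers (chromosome 4, 47208161-47313167, mm10), stood at 25.5, 32.5, 34.5, 41 and 15.5 CPM in 6 Gy + INDO tumors, against 85, 69, 85.3, 119 and 86.1 CPM in INDO tumors. Each irradiated tumor was below each INDO tumor, and INDO replicate 3, with little muscle RNA, was at 85.3 CPM, within the range of its group. That is 1 tumor, and the part of muscle in the Col15a1 levels was not tested. The level was 2.99-fold lower with 6 Gy + INDO (log2 -1.58 ± 0.23 SE, n = 5 each, adjusted p = 0.0099), and the log2 fold change was -1.42 without the high-receptor tumors. Plvap, which forms the diaphragms of endothelial fenestrae and caveolae (chromosome 8, 71497765-71511752), was at 12.3, 11.3, 8.93, 12.5 and 9.19 CPM in 6 Gy + INDO tumors, against 19.2, 20.7, 18.7, 25.2 and 17.5 CPM in INDO tumors (log2 -0.9 ± 0.15, adjusted p = 0.012). Hic1, Mmp9 and Slc16a3 likewise stayed called in all 10 of these fits.

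Vwf and Notch4 were called in fewer of these fits. Vwf, the clotting factor stored by endothelial cells (chromosome 6, 125546774-125686679), was at 6.45, 6.55, 5.4, 7.35 and 5.26 CPM in 6 Gy + INDO tumors, against 12.3, 18.8, 9.46, 17.1 and 11.3 CPM in INDO tumors (log2 -1.15 ± 0.22, adjusted p = 0.023, -1 without the high-receptor tumors). Notch4, a Notch receptor of endothelium, was at 4.75, 5.35, 4.73, 7.88 and 4.31 CPM in 6 Gy + INDO tumors, against 15.7, 11.5, 8.23, 17.6 and 10.8 CPM in INDO tumors (log2 -1.24 ± 0.28, adjusted p = 0.041). Neither gene overlapped between groups, and Vwf was called in 7 and Notch4 in 3 of the 10 fits with 1 tumor left out. Of the 18 endothelial markers, 13 reached the level limit. All 13 had a log2 fold change below 0, with a median of -0.63. In edgeR's test 2 were called lower (Plvap, Vwf) and 11 did not pass, while DESeq2 called 4. The edgeR count became 1 without 6 Gy + INDO replicate 3 or 5 or INDO replicate 4, 4 without 6 Gy + INDO replicate 4, and none without the high-receptor tumors. Their summed level was 216 to 319 CPM in 6 Gy + INDO tumors and 326 to 416 CPM in INDO tumors. In whole tumors, fewer cells of a type and less RNA per cell cannot be told apart.

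The promoter of Notch4 is shown as that of a called endothelial gene with a match to an AP-1 motif. The RefSeq window covers 250 bases before to 50 after the transcript start (GRCm38.p6, plus strand, chr17:34564045-34564344). Capitals mark the letters TGANTCA, the motif of FOS and JUN dimers, searched on both strands. The window held 1 match, whose first base lies 4 bases before the start.
Notch4: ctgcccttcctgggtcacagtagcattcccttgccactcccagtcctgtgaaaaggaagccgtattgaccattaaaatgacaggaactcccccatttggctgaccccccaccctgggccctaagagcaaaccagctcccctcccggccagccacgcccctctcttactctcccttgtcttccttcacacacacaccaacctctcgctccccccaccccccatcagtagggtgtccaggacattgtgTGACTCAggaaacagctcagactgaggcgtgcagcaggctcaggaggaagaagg
The motif occurred in 8.97% of the 27025 genes with a window and in 6.46% of the 8710 such genes at the level limit. It occurred in 8 of the 58 lower genes that matched the table (13.8%) and in 2 of the 9 higher genes that matched. A match is a run of letters and does not show that a factor binds there.

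Tagln and Cd248 were among the lower genes used by pericytes, smooth muscle or fibroblasts. Tagln, an actin-binding protein of smooth muscle and myofibroblasts (chromosome 9, 45929619-45936058), was at 20.4, 34.8, 50.7, 26.7 and 8.92 CPM in 6 Gy + INDO tumors, against 73.7, 63.4, 68.1, 112 and 77.7 CPM in INDO tumors. All irradiated tumors were below all INDO tumors, and the level was 2.8-fold lower (log2 -1.48 ± 0.35, adjusted p = 0.043). Without the high-receptor tumors the log2 fold change was -1.74. Cd248 (endosialin), a surface protein of pericytes and tumor fibroblasts, was at 8, 6.23, 10.3, 7.35 and 5.92 CPM in 6 Gy + INDO tumors, against 18.4, 15.4, 17.7, 26.4 and 14.8 CPM in INDO tumors (log2 -1.3 ± 0.27, adjusted p = 0.031).

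Further genes of these cells were chosen after their values were seen. Rgs5, a regulator of G protein signaling in pericytes, was at 8.08, 6.81, 14.7, 4.63 and 4.7 CPM in 6 Gy + INDO tumors and at 17.7, 18.4, 7.95, 37.7 and 25.8 CPM in INDO tumors, with INDO replicate 3 inside the range of the irradiated tumors (log2 -1.48 ± 0.34, adjusted p = 0.041). Cspg4 (NG2), a pericyte proteoglycan, averaged 14.2 ± 3.57 CPM in 6 Gy + INDO tumors and 30.4 ± 5.05 CPM in INDO tumors (SD, n = 5 each; log2 -1.1 ± 0.26, adjusted p = 0.042). Myh11, the smooth muscle myosin heavy chain, averaged 7.21 ± 1.11 CPM with 6 Gy + INDO and 13.5 ± 3.11 CPM with INDO (log2 -0.91 ± 0.19, adjusted p = 0.034). Cspg4 and Myh11 did not overlap between groups, while Rgs5 did.

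Hic1, a zinc finger repressor expressed in mesenchymal progenitors (chromosome 11, 75164565-75169519), was low in all tumors, at 2.52, 1.67, 2.1, 2.84 and 1.87 CPM with 6 Gy + INDO and 5.98, 6.05, 6.71, 10.3 and 5.24 CPM with INDO. The groups were far apart for so low a level (3.11-fold lower, log2 -1.64 ± 0.27, adjusted p = 0.012). Ednrb, the endothelin B receptor, was at 2.91, 3.13, 3.8, 2.42 and 2.11 CPM in 6 Gy + INDO tumors and at 4.55, 5.09, 4.46, 18.1 and 11.2 CPM in INDO tumors, so that INDO replicates 4 and 5 set most of the difference (log2 -1.6 ± 0.38, adjusted p = 0.043). Shank3, a scaffold protein best known at synapses, was at 1.93 to 3.64 CPM with 6 Gy + INDO and 4.28 to 11.8 CPM with INDO (log2 -1.51 ± 0.3, adjusted p = 0.023). Aoc3 (VAP-1), an amine oxidase of vessel smooth muscle, endothelium and fat, was at 2.19 to 5.18 CPM with 6 Gy + INDO and 6.64 to 12.5 CPM with INDO (log2 -1.3 ± 0.26, adjusted p = 0.028), while the adipocyte list summed to 7.13 to 30.4 CPM and 10.1 to 105 CPM in these groups.

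**Figure D2:**
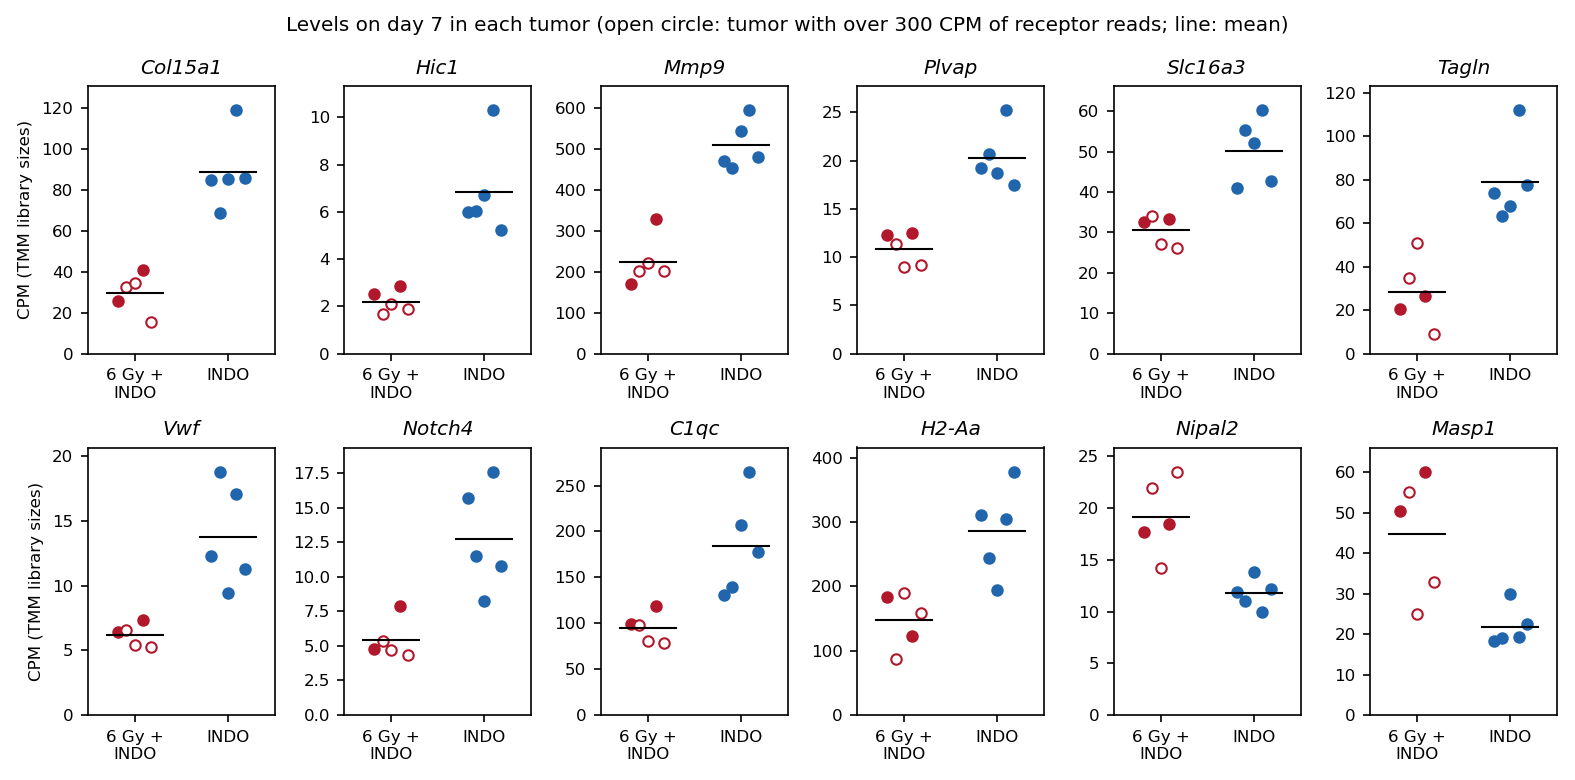
CPM of 12 genes in each 6 Gy + INDO tumor (left) and each INDO tumor (right), with replicates 1 to 5 from left to right within a group, the mean as a line and high-receptor tumors as open circles. For the 10 lower genes shown, all 6 Gy + INDO tumors lie below all INDO tumors, whereas Masp1 overlaps between the groups.

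Of the 22 fibroblast and matrix genes at the level limit, 6 were called lower by edgeR (11 by DESeq2), none higher, and 16 did not pass. Their median log2 fold change was -0.72, with 19 below 0. Col1a2, a chain of type I collagen, was at 859, 379, 560, 314 and 463 CPM in 6 Gy + INDO tumors, against 1190, 1040, 746, 1530 and 1060 CPM in INDO tumors, with 6 Gy + INDO replicate 1 above INDO replicate 3 (log2 -1.11 ± 0.27, adjusted p = 0.046). Sparc, a collagen-binding matrix protein, was at 208 to 363 CPM with 6 Gy + INDO and 415 to 662 CPM with INDO (log2 -0.82 ± 0.2, adjusted p = 0.046). Fbn1, the fibrillin of elastic microfibrils, was at 114 to 208 CPM with 6 Gy + INDO and 212 to 376 CPM with INDO (log2 -0.94 ± 0.23, adjusted p = 0.049). Sparc and Fbn1 did not overlap between groups, though the highest irradiated tumor and the lowest INDO tumor were close for Fbn1.

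Ccdc80, a secreted matrix protein of fibroblasts and fat, was at 31.4, 19.5, 36.6, 22.4 and 17.1 CPM with 6 Gy + INDO and 74.1, 51.3, 46.9, 100 and 91.3 CPM with INDO (log2 -1.52 ± 0.31, adjusted p = 0.028). Loxl2, which crosslinks collagen, averaged 57.9 ± 12.4 CPM with 6 Gy + INDO and 111 ± 19.2 CPM with INDO (log2 -0.94 ± 0.18, adjusted p = 0.023) and was called in 8 of the 10 left-out fits. The count of 6 called matrix genes was among the least stable. It was 10 without 6 Gy + INDO replicate 1, 4 without INDO replicate 3, 1 without 6 Gy + INDO replicate 3 or 4, and 0 without any of the other 6 tumors or without the high-receptor tumors.

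Some of the larger changes were in genes that skeletal muscle also uses. Jph2 (junctophilin 2), which holds the calcium store of muscle cells to the plasma membrane (chromosome 2, 163336242-163397993), was at 3.57, 2.22, 3.39, 3.47 and 1.58 CPM in 6 Gy + INDO tumors, against 19.2, 33.7, 3.87, 16.7 and 9.42 CPM in INDO tumors. INDO replicate 3, the INDO tumor with the least muscle RNA, stood next to the irradiated tumors. The 4 INDO tumors with 3930 CPM or more of muscle genes were at 9.42 CPM or more of Jph2. Between the groups the log2 fold change was -2.54 ± 0.53 (adjusted p = 0.031). The called genes Tpm2 and Obsl1, named after their values were seen, are likewise used by muscle, with log2 fold changes of -2.22 and -2.08. The 16 muscle genes of the list had a median log2 fold change of -3.79. None was called by edgeR and 2 were called lower by DESeq2, with 14 at an unadjusted p under 0.05. Jph2, Tpm2 and Obsl1 were not called with the muscle score in the fit, where only 8 of the 92 lower genes stayed called. The score itself differed between the groups, and the part of muscle in these changes was not tested.

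Of the macrophage and monocyte genes, C1qc and C1qa were called lower. C1qc and C1qa, chains of the complement component C1q that tumor macrophages make, lie side by side on chromosome 4. C1qc (136889804-136893065) was at 99.6, 97.6, 80.9, 119 and 78.9 CPM in 6 Gy + INDO tumors, against 131, 140, 207, 265 and 178 CPM in INDO tumors (log2 -0.95 ± 0.21, adjusted p = 0.041). C1qa was at 154, 153, 147, 175 and 125 CPM with 6 Gy + INDO and 204, 192, 290, 392 and 275 CPM with INDO (log2 -0.84 ± 0.2, adjusted p = 0.044). Neither gene overlapped, and without the high-receptor tumors their log2 fold changes were -0.75 and -0.72.

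The promoter of C1qc is shown as that of a called macrophage gene with a match to GAGGAAGT, a motif of PU.1, the myeloid factor encoded by Spi1 (GRCm38.p6, minus strand, chr4:136892865-136893164, RefSeq). Capitals mark the match, which reads on the opposite strand, its first printed base lying 195 bases before the start.
C1qc: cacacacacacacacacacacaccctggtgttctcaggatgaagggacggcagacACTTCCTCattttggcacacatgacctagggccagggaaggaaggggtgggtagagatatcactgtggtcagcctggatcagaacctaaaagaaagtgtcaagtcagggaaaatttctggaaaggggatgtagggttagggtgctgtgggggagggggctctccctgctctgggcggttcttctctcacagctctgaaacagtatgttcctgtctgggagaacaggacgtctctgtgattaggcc
These letters were in 3.69% of genes with a window and in 2 of the 58 lower genes that matched (3.45%), so the share among lower genes was near that of all genes. Spi1 itself, chosen after its values were seen, was at 15.6, 10.8, 11.4, 13.8 and 11.8 CPM in 6 Gy + INDO tumors and at 16.4, 20.7, 20.1, 24.6 and 20.1 CPM in INDO tumors (log2 -0.68 ± 0.14, adjusted p = 0.031).

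Of the 22 macrophage and monocyte genes at the level limit, all 22 had a log2 fold change below 0, with a median of -0.6, and 2 were called lower by edgeR (6 by DESeq2), while 20 did not pass. The edgeR count was 3 without 6 Gy + INDO replicate 4, 1 without INDO replicate 1, 2 without 6 Gy + INDO replicate 1 or INDO replicate 2, and 0 without any of the other 6 tumors or without the high-receptor tumors. Siglec1, a sialic acid receptor of resident macrophages, was at 9.34, 18, 24.4, 29.8 and 7.64 CPM with 6 Gy + INDO and 30.4, 26.1, 23, 75.2 and 55.8 CPM with INDO. The groups overlapped, and the change was not called in the fit of the 20 day 7 tumors (log2 -1.24 ± 0.43, adjusted p = 0.13). In edgeR's fit of all 94 tumors Siglec1 was called lower on day 7 (log2 -1.26 ± 0.37, adjusted p = 0.037). Csf2ra, the receptor chain for GM-CSF, averaged 13.5 ± 3.04 CPM with 6 Gy + INDO and 28.6 ± 9.13 CPM with INDO (log2 -1.08 ± 0.22, adjusted p = 0.031). Plac8, found in myeloid and lymphoid cells, was at 6.21 to 13.7 CPM with 6 Gy + INDO and 14.8 to 38.7 CPM with INDO (log2 -1.19 ± 0.29, adjusted p = 0.048).

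The 9 MHC class II genes had 1 member called lower by edgeR and 6 by DESeq2. H2-Aa, the alpha chain of the class II molecule I-A (chromosome 17, 34282744-34287823), was at 183, 87.4, 189, 123 and 158 CPM in 6 Gy + INDO tumors, against 311, 244, 195, 305 and 378 CPM in INDO tumors (log2 -0.95 ± 0.22, adjusted p = 0.043). The groups did not overlap, but 6 Gy + INDO replicate 3 at 189 CPM and INDO replicate 3 at 195 CPM nearly met. All 9 class II genes at the level limit were below 0, with a median of -0.84, and their summed level was 758 to 1580 CPM with 6 Gy + INDO and 1710 to 2780 CPM with INDO. The called count was 6 without 6 Gy + INDO replicate 1, 3 without INDO replicate 3, 1 without 6 Gy + INDO replicate 4, and 0 without any of the other 7 tumors or without the high-receptor tumors. The median log2 fold change of the class II genes was -0.64 without the high-receptor tumors, beside -0.01 for all genes.

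Mmp9, the gelatinase stored by neutrophils and made by macrophages and other stromal cells (chromosome 2, 164940780-164955850), was lower in all irradiated tumors. It was at 171, 201, 220, 329 and 202 CPM in 6 Gy + INDO tumors, against 470, 453, 543, 594 and 481 CPM in INDO tumors, with no overlap. The level was 2.26-fold lower (log2 -1.18 ± 0.18, adjusted p = 0.011), and -1.02 on the log2 scale without the high-receptor tumors. Mmp9 was the only called gene of the 11 neutrophil genes at the level limit. Of the 11, 8 were below 0 and 3 above, with a median log2 fold change of -0.32. The next 3 genes were named after their values were seen. Csf3r, the G-CSF receptor, was at a mean of 30.2 CPM with 6 Gy + INDO and 45 CPM with INDO. S100a8, a neutrophil calcium-binding protein, was at 22 CPM and 40.9 CPM. Cxcr2, of the same list, went the other way, at 14.4 CPM with 6 Gy + INDO and 11.3 CPM with INDO. None of these 3 was called.

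Slc16a3 (MCT4), the lactate exporter of glycolytic cells (chromosome 11, 120948480-120960868), and Bin2, a membrane-shaping protein of leukocytes, were chosen after their values were seen, for the stability of their calls. Slc16a3 was at 32.5, 34, 27.1, 33.4 and 26.1 CPM in 6 Gy + INDO tumors, against 41, 55.3, 52, 60.2 and 42.7 CPM in INDO tumors (log2 -0.72 ± 0.12, adjusted p = 0.012). Bin2 averaged 11.1 ± 1.91 CPM with 6 Gy + INDO and 18.8 ± 2.04 CPM with INDO (log2 -0.76 ± 0.13, adjusted p = 0.012). Both separated the groups without overlap.

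Of the 15 genes higher with 6 Gy + INDO, 3 changed by more than 2-fold: Masp1, Esyt3 and a gene named only by its clone (log2 1.52). Esyt3, an extended synaptotagmin that tethers the endoplasmic reticulum to the plasma membrane, was chosen after its values were seen because 9 of the 10 fits without 1 tumor called it. It was at 23, 22.7, 10.5, 21.2 and 22.9 CPM in 6 Gy + INDO tumors, against 8.42, 7.5, 12.4, 6.74 and 8.09 CPM in INDO tumors (log2 1.22 ± 0.21, adjusted p = 0.015, 1.35 without the high-receptor tumors). The replicates 3 of both groups were the ones that overlapped. Car12, a membrane carbonic anhydrase, and Afap1l2, an actin-associated adaptor, also named after their values were seen, had log2 fold changes of 0.87 ± 0.2 and 0.88 ± 0.2.

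Higher genes without overlap had smaller changes. Nipal2, a member of a magnesium transporter family (chromosome 15, 34572799-34679212), was at 17.7, 21.9, 14.2, 18.5 and 23.5 CPM in 6 Gy + INDO tumors, against 11.9, 11, 13.8, 10 and 12.2 CPM in INDO tumors. All irradiated tumors were above all INDO tumors, replicates 3 of both groups lying close (1.63-fold higher, log2 0.7 ± 0.13, adjusted p = 0.023). Ghr, the growth hormone receptor, was at 61.2, 58.4, 50, 56.2 and 51.1 CPM with 6 Gy + INDO and 38.3, 36.4, 40.3, 36.4 and 41.1 CPM with INDO (log2 0.52 ± 0.11, adjusted p = 0.028). Lgr4, a receptor for R-spondins that strengthens Wnt signaling, was at 19.1 to 25.9 CPM with 6 Gy + INDO and 13.1 to 17.6 CPM with INDO (log2 0.49 ± 0.12, adjusted p = 0.044).

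Smaller rises without overlap were found in Trim2, a ubiquitin ligase, with log2 0.48 ± 0.11, in Ppp3ca, a catalytic subunit of calcineurin, with 0.41 ± 0.08, in Shtn1, a regulator of cell migration, with 0.31 ± 0.07, in Daam1, a formin of the Wnt planar polarity pathway, with 0.28 ± 0.07, and in Srpk2, a kinase of splicing factors, with 0.27 ± 0.07. Their adjusted p-values were 0.026 to 0.048. Ppp3ca was at 110, 127, 131, 108 and 117 CPM in 6 Gy + INDO tumors and at 93.2, 83.1, 99.1, 80.8 and 90 CPM in INDO tumors. Masp1, a protease of the lectin complement pathway (chromosome 16, 23449417-23520815), was the 1 higher gene among the 14 complement genes, at 50.3, 55, 25, 60.1 and 32.8 CPM with 6 Gy + INDO and 18.3, 19, 30, 19.4 and 22.5 CPM with INDO (log2 1.03 ± 0.21, adjusted p = 0.028). The other 13 complement genes were below 0 and uncalled by edgeR, 4 at an unadjusted p under 0.05, and DESeq2 called 3 of them lower. Masp1 lost its call without 6 Gy + INDO replicate 2 or INDO replicates 1, 2, 4 or 5.

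None of the 14 genes the study names for its RNA readouts was called by edgeR in the fit of the 20 day 7 tumors, while DESeq2 called Eme1 higher and Siglec1 lower. Ptgs2, which encodes COX2, was at 237, 155, 198, 109 and 279 CPM in 6 Gy + INDO tumors and at 138, 169, 220, 172 and 229 CPM in INDO tumors (log2 0.07 ± 0.26, adjusted p = 0.9). Cgas, the cytosolic DNA sensor, averaged 12.7 ± 1.51 CPM with 6 Gy + INDO and 12.6 ± 0.64 CPM with INDO (log2 0.01 ± 0.12, adjusted p = 0.98). Sting1, the adaptor that the product of cGAS binds, averaged 28.7 ± 3.7 CPM with 6 Gy + INDO and 36.7 ± 5.55 CPM with INDO (log2 -0.35 ± 0.12, adjusted p = 0.11). The sign of the small Ptgs2 and Cgas values changed between fits.

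Mus81 and Eme1 encode the subunits of a structure-specific endonuclease that cuts stalled replication forks. Mus81 averaged 10.7 ± 1.06 CPM with 6 Gy + INDO and 11.6 ± 1.27 CPM with INDO (log2 -0.13 ± 0.1, adjusted p = 0.52). Eme1 was at 6.04, 7.66, 6.57, 7.93 and 7.22 CPM with 6 Gy + INDO and 5.89, 5.01, 4.96, 5.16 and 5.52 CPM with INDO. The Eme1 values did not overlap, yet the change missed the threshold (log2 0.42 ± 0.11, adjusted p = 0.069). Parp1, a sensor of DNA breaks, gave log2 -0.18 ± 0.09 (adjusted p = 0.26).

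Lymphocyte genes were low. Cd8a, a chain of the CD8 coreceptor, was at 3.08, 0.146, 5.54, 0.856 and 2.56 CPM with 6 Gy + INDO and 7.05, 3.14, 3.39, 5.64 and 6.22 CPM with INDO (log2 -1.07 ± 0.55, adjusted p = 0.29). Gzmb, the cytotoxic protease, was at 2.54 to 33.1 CPM with 6 Gy + INDO and 9.22 to 30.1 CPM with INDO (log2 -0.31 ± 0.5, adjusted p = 0.77). Cd4, Ifng and Il10 were below the level limit with INDO, at means of 1.81, 0.768 and 4.05 CPM with 6 Gy + INDO and 2.8, 1.02 and 3.29 CPM with INDO, and none was called. Csf2, which encodes GM-CSF, gave log2 -0.27 ± 0.26 (adjusted p = 0.61), and Ccl2, a monocyte chemokine, 0.03 ± 0.29 (adjusted p = 0.96). Cd8a, Gzmb and Ifng were lowest in 6 Gy + INDO replicate 2.

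The lists for tumor cells and their pathways were near 0. The 24 mitosis and G2 genes had a median log2 fold change of 0.16 (19 above 0), the 24 DNA replication genes -0.12 (20 below 0), the 25 DNA repair genes 0.01, and the 21 p53 targets -0.08. The 28 interferon-stimulated genes had a median of 0.07, the 13 genes of cytosolic DNA sensing -0.15, and the 15 interferon gamma-inducible GTPases -0.06. The 16 tumor epithelium genes had a median of 0, the 22 hypoxia and glycolysis genes -0.02, and the 14 genes of the prostaglandin pathway -0.07. None of the 202 genes in these 10 lists was called by edgeR, where 9 higher and 11 lower ones had an unadjusted p under 0.05, and DESeq2 called 2 higher and 2 lower. Over all 11361 genes edgeR called 107 (0.942%), so few calls among 202 genes would be near that share. There, 303 higher and 1554 lower genes had an unadjusted p under 0.05, and DESeq2 called 74 higher and 350 lower. The sign of such medians depends on the scaling: with housekeeping scaling, which moves all genes up by 0.25, the lists for p53 targets, replication, DNA sensing, GTPases, hypoxia and prostaglandins had medians above 0, and 19 of the 202 genes were called higher.

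In a few uncalled lists all members lay on 1 side. All 15 MHC class I genes were below 0 (median -0.38, -0.15 with housekeeping scaling), as were all 24 nuclear-encoded respiratory chain genes (median -0.28, -0.05 with housekeeping scaling) and all 5 dendritic cell genes at the level limit (median -0.4). The 28 genes for cytokines and immunosuppressive mediators had a median of -0.26, which was 0 with housekeeping scaling. Over all 11361 genes, 62.8% were below 0. T cell markers had 3 of 24 genes at the level limit, and cytotoxic lymphocyte markers 7 of 22, and none of these 10 genes was called by edgeR or DESeq2, with 1 at an unadjusted p under 0.05. The class I, respiratory chain, dendritic and cytokine lists had 8, 7, 4 and 9 genes lower at an unadjusted p under 0.05, and DESeq2 called 0, 0, 1 and 5 of them. Over all 11361 genes, 1554 were lower at an unadjusted p under 0.05 in edgeR's test, and DESeq2 called 350 lower.

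**Figure D3:**
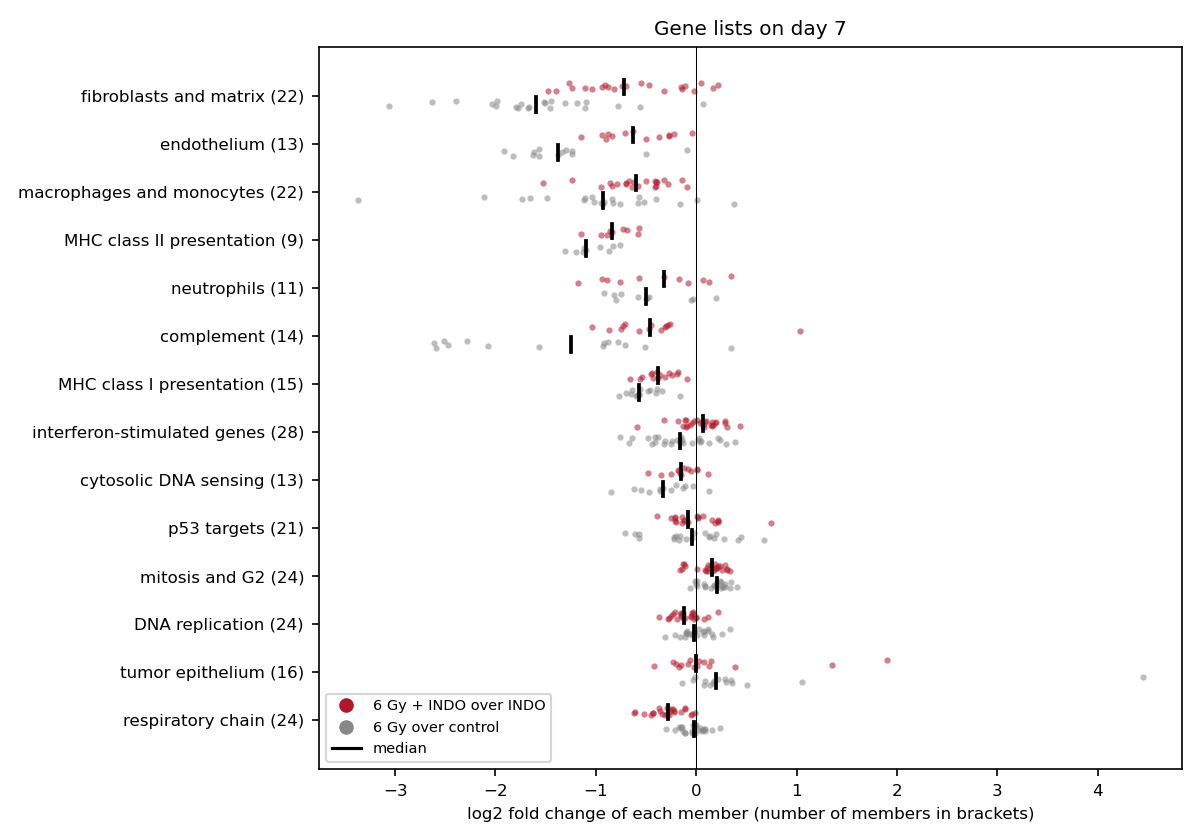
Log2 fold changes of the members of 14 gene lists at the level limit, for 6 Gy + INDO over INDO (upper row of each list, red) and 6 Gy over control (lower row, gray), with the median of each as a vertical bar. The medians of all lists but tumor epithelium, mitosis and interferon-stimulated genes lie left of 0 in both rows, some of them close to 0. Those of the fibroblast and endothelial lists were -0.72 and -0.63 with INDO and -1.6 and -1.38 without it.

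The radiation effect without the drug, 6 Gy against control on the same day, shares no tumor with the comparison above. In the same 11361 genes it called 464 higher (4.08%) and 1181 lower (10.4%). The median SE was 0.14 in both comparisons. Both use the spread estimated in 1 fit of the day 7 tumors, so near-equal SEs were favored in advance and do not show equal precision. Of the 92 genes lower with INDO, 77 were also lower without it, which is 83.7% of the 92 and 6.52% of the 1181. Of the 15 genes higher with INDO, 7 were also higher without it, which is 46.7% of the 15 and 1.51% of the 464. No gene was called in opposite directions. The genes lower after 6 Gy without INDO had a median log2 fold change of -0.35 with INDO, beside -0.77 without it, and 1131 of the 1181 were below 0 with INDO. The 1181 genes were chosen by the second value, so that the smaller size of the first is a description.

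List medians can be set side by side. The fibroblast and matrix genes had a median of -0.72 with INDO and -1.6 without, where 21 of 22 were called lower. The endothelial genes had -0.63 with INDO and -1.38 without (11 of 13 called lower), and the macrophage genes -0.6 with INDO and -0.93 without (15 of 22). For the 9 class II genes the medians were -0.84 with INDO and -1.1 without (9 of 9). The smaller count of calls with INDO does not by itself show that the effects differ, and the difference was tested gene by gene as an interaction.

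**Figure D4:**
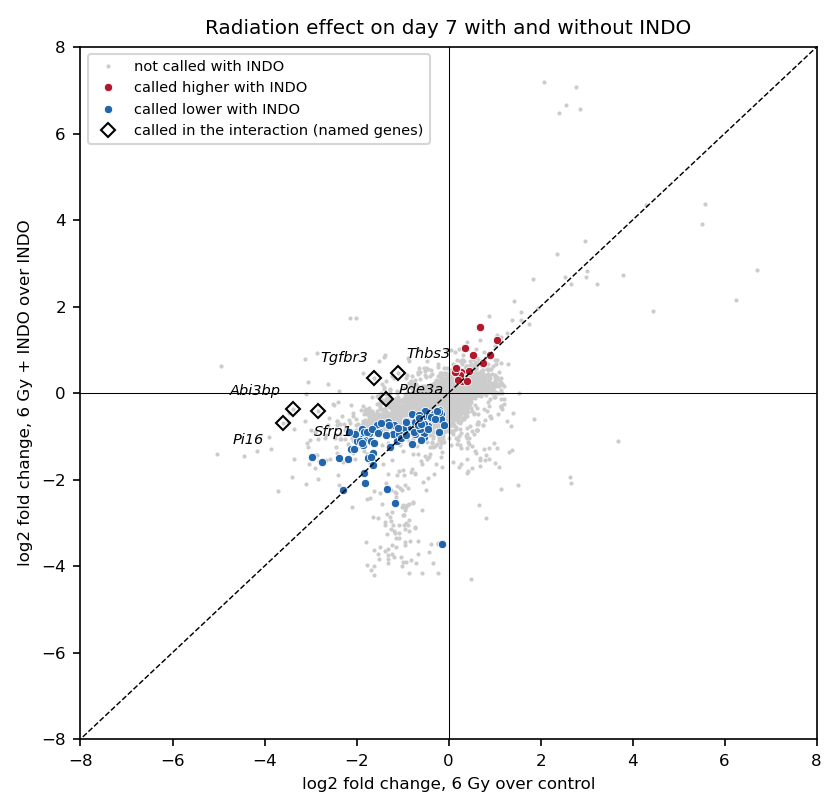
Log2 fold change of 6 Gy + INDO over INDO (y axis) against that of 6 Gy over control (x axis) for the 11361 genes, with the 15 called higher genes in red, the 92 called lower genes in blue, the 6 named interaction genes as diamonds and equality as a dashed line. Every called gene has the same sign on both axes, and the interaction genes lie left of 0 on the x axis and between -0.69 and 0.47 on the y axis.

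In the interaction, 7 of 11361 genes were called (0.0616%), 6 of them higher, meaning a radiation effect that was less negative or above 0 with INDO. It was above 0 with INDO, though not called, for Tgfbr3 (log2 0.34) and Thbs3 (log2 0.47). Pi16, a peptidase inhibitor of adventitial fibroblasts (chromosome 17, 29317680-29330593), was at 5.05, 4.62, 3.89, 3.15 and 5.56 CPM in 6 Gy + INDO tumors and at 6.51, 9.04, 7.45, 9.17 and 3.87 CPM in INDO tumors (log2 -0.69 ± 0.24, adjusted p = 0.13). Without the drug it averaged 4.04 ± 0.309 CPM after 6 Gy and 48.9 ± 18.1 CPM in control tumors (log2 -3.6, adjusted p = 3.4e-07). The 2 effects differed by 2.9 ± 0.34 on the log2 scale (adjusted p = 0.0013). The 3 treated groups thus held Pi16 at similar low means and control tumors stood apart.

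The same arrangement was seen in Abi3bp, a matrix protein of fibroblasts, at means of 4.55 CPM with 6 Gy + INDO and 5.9 CPM with INDO, and of 3.64 CPM with 6 Gy and 38.2 CPM in controls (interaction 3.01 ± 0.52, adjusted p = 0.036). Sfrp1, a secreted Wnt antagonist, averaged 18.5 CPM with 6 Gy + INDO and 24.6 CPM with INDO, and 11.7 CPM with 6 Gy and 83.7 CPM in controls (2.42 ± 0.48, adjusted p = 0.048). Tgfbr3 (betaglycan), a coreceptor for TGF-beta, averaged 20.9 CPM with 6 Gy + INDO and 16.6 CPM with INDO, and 15 CPM with 6 Gy and 46 CPM in controls (1.95 ± 0.37, adjusted p = 0.047). In these genes the radiation effect with INDO was not called.

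Thbs3, a thrombospondin of the matrix, averaged 18.7 ± 3.22 CPM with 6 Gy + INDO and 13.5 ± 1.68 CPM with INDO, and 13.3 ± 1.88 CPM with 6 Gy and 28.6 ± 6.35 CPM in controls (interaction 1.57 ± 0.22, adjusted p = 0.0068). Pde3a, a cyclic nucleotide phosphodiesterase of smooth muscle, averaged 6.04 CPM with 6 Gy + INDO and 6.62 CPM with INDO, and 5.19 CPM with 6 Gy and 13.2 CPM in controls (1.21 ± 0.22, adjusted p = 0.039). The remaining called gene, Gm42664, is a predicted gene with an interaction of -1.48. Without the high-receptor tumors 4 genes were called: Thbs3 (1.61), Pi16 (2.76), Il1r1 and C4b. The count was 60, 32 and 18 without 6 Gy + INDO replicate 4, 6 Gy + INDO replicate 2 and INDO replicate 4, and 2 to 5 without each of the other 7 tumors, with 5 without 6 Gy + INDO replicate 1 or INDO replicate 2 and 4 without 6 Gy + INDO replicate 5.

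Across days, the same genes were followed in 1 fit of all 94 tumors. The 92 lower genes had median log2 fold changes of -0.03, -0.12, -0.93, -0.32 and 0.36 on days 1, 3, 7, 15 and 23, with 48, 60, 92, 77 and 28 of them below 0. Since they were chosen on day 7, the day 7 value is the one the choice fixes. Col15a1 gave -0.3 ± 0.27, 0.31 ± 0.29, -1.6 ± 0.28, -0.65 ± 0.27 and 0.79 ± 0.27 over these days, and Mmp9 0.17 ± 0.3, -0.05 ± 0.32, -1.2 ± 0.31, -0.32 ± 0.3 and 0.51 ± 0.31. H2-Aa gave -0.62 ± 0.35, -2.06 ± 0.39, -0.98 ± 0.35, -0.89 ± 0.35 and -0.25 ± 0.35, its lowest value being on day 3.

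**Figure D5:**
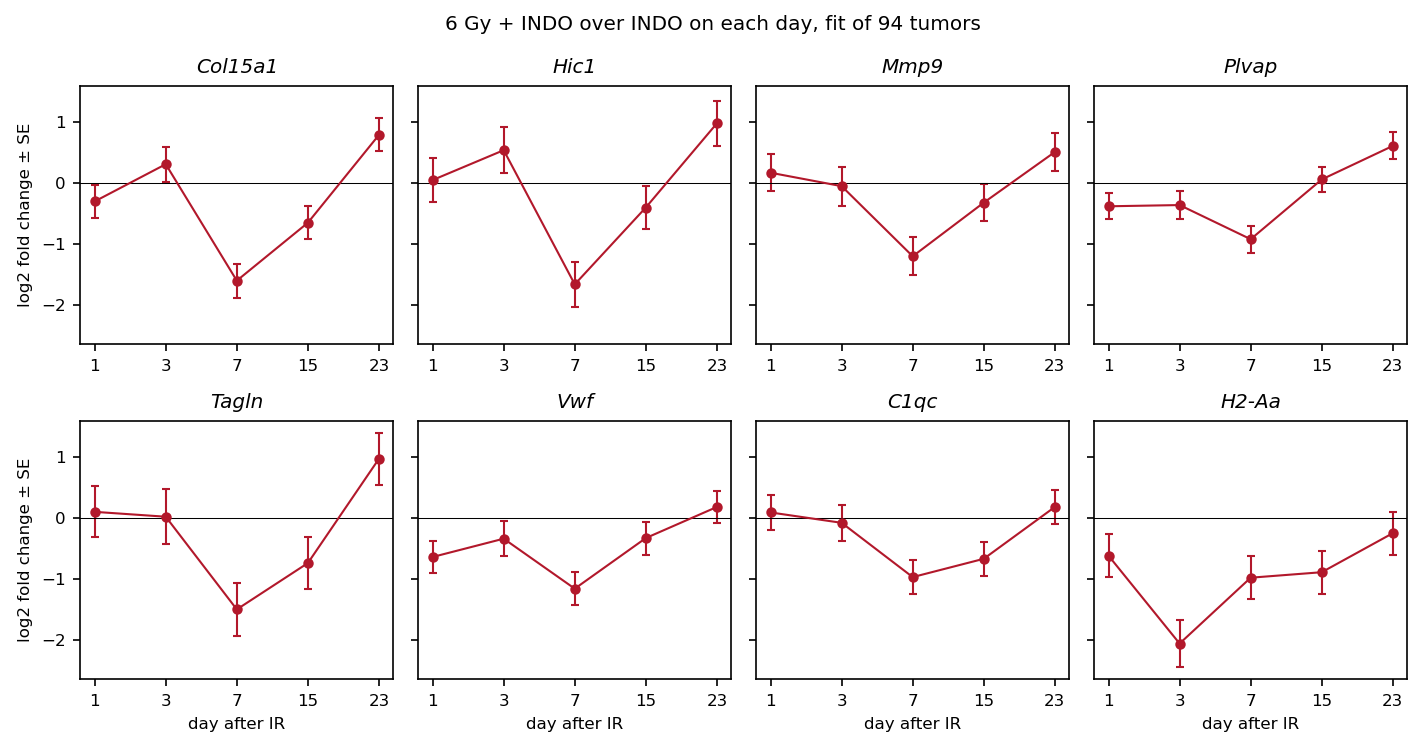
Log2 fold change of 6 Gy + INDO over INDO with its SE on days 1, 3, 7, 15 and 23 after IR (x axis, days evenly spaced) for 8 genes, from 1 fit of all 94 tumors. All but H2-Aa have their lowest value on day 7, and H2-Aa is lowest on day 3 at -2.06. The 8 genes were chosen as called lower on day 7, which favors a low value on that day.

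The difference between days was tested in the same fit. Against day 1, 264 genes differed (2.32%), 13 higher and 251 lower on day 7, among them 24 of the 92 lower and 3 of the 15 higher genes. With housekeeping scaling 315 were higher and 93 lower, so the balance of directions depends on the scaling. The 92 and 15 genes were chosen in the same day 7 tumors, which favors a day 7 difference in them. Their overlap and the p-values of genes named from them are descriptions. Col15a1 differed by -1.3 (adjusted p = 0.035), Hic1 by -1.7 (adjusted p = 0.036), Mmp9 by -1.37 (adjusted p = 0.04) and Nipal2 by 0.74 (adjusted p = 0.032). The 264 genes were of many kinds. Among them were ribosomal protein genes (Rpl37a, -1.5), respiratory chain genes (Cox7a2, -1.27) and predicted genes (Gm10719, 9.74), named after their values were seen. Plvap, Vwf and H2-Aa did not differ from day 1 beyond the threshold. Without the 11 high-receptor tumors of the series no gene was called by edgeR, and 913 had an unadjusted p under 0.05. The count was 656 without 6 Gy + INDO replicate 1, 143 and 109 without INDO replicates 1 and 5, and 0 without 6 Gy + INDO replicate 3 or 5 or INDO replicate 3 or 4, where 1149 to 1393 genes had an unadjusted p under 0.05. Against the mean of days 15 and 23, 4 genes differed (0.0352%): Tns1, a focal adhesion protein (-1.47, adjusted p = 0.011), Col15a1 (-1.66, adjusted p = 0.024), Plvap (-1.25, adjusted p = 0.04) and, higher on day 7, Afap1l2 (1.45, adjusted p = 0.011). The late difference called 0 genes without the high-receptor tumors, without 6 Gy + INDO replicate 2 or without INDO replicate 4 (542, 834 and 915 at an unadjusted p under 0.05), 1 without 6 Gy + INDO replicate 5, and 37, 24 and 10 without 6 Gy + INDO replicate 1, INDO replicate 3 and 6 Gy + INDO replicate 4.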

How the data were processed

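Total RNA of whole 4T1 tumors was sequenced from TruSeq stranded total RNA libraries. The values deposited by the authors are expected counts, estimates that need not be whole, and 15.5% of them are not. Reads were trimmed with cutadapt, and the submitters' processing notes also name STAR, Partek 11.0.24.0328 and the mm10 build. The counting tool and annotation are not given in the sources used here. After rounding to whole numbers, edgeR 4.0.16 was run in R 4.3.3 (filterByExpr with a minimum count of 10 and total of 15, TMM, quasi-likelihood F test, all 20 day 7 tumors in 1 fit). DESeq2 1.42.0 was an alternative. CPM use TMM library sizes, and each SE was obtained as the absolute log2 fold change divided by sqrt(F). Day differences came from 1 fit of 94 tumors, and their left-out fits kept its genes and trended dispersion. The functions were tested on simulated data.

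Members and gene lists were chosen with earlier results of these data known. Named genes are, by rule, for each list the 4 called genes of lowest p (fewer where fewer were called), the 12 largest called changes in each direction without overlap (predicted genes, pseudogenes, receptors and structural RNA left out), 14 genes the study names, and the 6 largest interaction calls. Genes named outside this rule are marked as such. Gene positions are from GENCODE vM21 and promoters from RefSeq, both of the mm10 (GRCm38) build. Limits on depth, 21000000 to 74900000 counts per library, bear most on genes under 5 CPM.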

Additional observations from a re-analysis of the deposited data

Results flagged for a closer look

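Aoc3 stood out because its highest INDO tumor, replicate 4 at 12.5 CPM, stood apart from the other 4, which were at 6.64 to 7.85 CPM. This was 1 of 114 groups of 5 tumors examined, where chance gives about 1 in 20. The 6 named interaction genes stood out because the radiation effect with INDO differed from that without it by the test of the difference. On the log2 scale these differences were 3.01 for Abi3bp, 2.9 for Pi16, 2.42 for Sfrp1, 1.95 for Tgfbr3, 1.57 for Thbs3 and 1.21 for Pde3a.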

How the results depend on the processing

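Counts of higher, lower and interaction genes were 15, 92 and 7. They were 18, 86 and 7 with RLE factors, 600, 47 and 2 with housekeeping scaling, 74, 350 and 127 with DESeq2, 12, 243 and 7 with no filter on low counts, 26, 239 and 250 at P under 0.05 with a 2-fold change, 12, 79 and 4 at 10 CPM, 0, 0 and 4 with the high-receptor tumors left out, 1, 0 and 2 with receptor CPM in the model, 0, 8 and 5 with the muscle score, and 25, 226 and 36 with all 94 tumors in 1 fit. With only the 2 INDO groups there were 0 higher and 0 lower. Without 1 tumor they ran over 1 to 49, 5 to 485 and 2 to 60. Same-numbered tumors did not deviate together (r of -0.47 to -0.02). These values cannot exclude a pairing by number, and the labels do not describe one. A replicate block gave 0, 7 and 3, and 0 genes for the day 1 difference and 4 for the late difference. The day 1 difference (264) was 187 with RLE factors, 408 with housekeeping scaling, 130 with no filter, 0 without high-receptor tumors and 0 to 656 without 1 tumor. The late difference (4) was 1 with housekeeping scaling, 0 without high-receptor tumors and 0 to 37 without 1 tumor. The cause of these moves was not tested. Among the lower genes, 86 of 92 stayed called with RLE factors, 39 with housekeeping scaling and 73 with all 94 tumors.

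Only uncalled genes changed sign: Gzmb (0), Mus81 (0.12), Parp1 (0.06), Csf2 (0) and Pde3a (0.12) with housekeeping scaling, Cgas (-0.05) and Ccl2 (-0.02) with no filter, Ptgs2 (-0.1) and Cgas (-0.16) with the high-receptor tumors left out, Ptgs2 (-0.12) and Cgas (-0.14) with receptor CPM in the model, Ptgs2 (-0.02) and Ccl2 (-0.04) with the muscle score, and Cgas (-0.01) with all 94 tumors. Without 1 tumor, Ccl2 gave -0.12 to 0.23, Cgas -0.04 to 0.07, Ptgs2 -0.09 to 0.22 and Il10 0 to 0.45. The muscle score and the fits of the day differences without 1 tumor were chosen after seeing the data.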
